A study of Mus musculus with 4 samples.

Results

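The genes described here encode secreted ligands of the TGF-beta superfamily, with Gdf15 among them, in 3T3-L1 preadipocytes given Nutlin-3a or the vehicle. They were chosen by gene symbol from a list of 9 genes: Gdf15, Gdf10, Tgfb1, Tgfb2, Tgfb3, Inhba, Inhbb, Bmp2 and Bmp4. Of these, 8 were found among the 16709 gene symbols of the deposited table, and Bmp2 was not analysed here. 3T3-L1 is an established clonal mouse fibroblast line, used as a model of adipocyte precursors, and the labels give growth in serum-containing medium with no differentiation step. The Nutlin-3a group received 25 µM of the compound for 24 h, and the DMSO group received the same amount of solvent for 24 h. Nutlin-3a blocks the binding of p53 to MDM2, the ubiquitin ligase that marks p53 for degradation. Each group had 2 libraries, and the labels do not say whether these came from separate cultures. The table gives 1 FPKM value per transcript and group, so no value carries a replicate error and none was tested. FPKM counts fragments per length of transcript and per mapped fragment, so levels of different genes can be set side by side, though only roughly. Such comparisons rest on the listed transcript models, and several of these differ from the annotated genes. Folds printed for single genes are plain ratios of FPKM.

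TGF-beta superfamily ligands are made as precursors, cut by proprotein convertases and secreted as disulfide-linked dimers. Most bind a type II receptor kinase that activates a type I receptor kinase. TGF-beta and activin receptors then phosphorylate SMAD2 and SMAD3, BMP receptors phosphorylate SMAD1, SMAD5 and SMAD9, and SMAD4 joins either set in the nucleus. GDF15 is a divergent member that signals through the GDNF-family receptor GFRAL, found in the hindbrain, and its gene is a known target of p53 and of the integrated stress response. TGF-beta added to 3T3-L1 cultures is known to hold back their differentiation into adipocytes, whereas BMP4 is known to commit mesenchymal precursors to that lineage.

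Among the 8 listed genes, Gdf15 had by far the highest level in Nutlin-3a, while Tgfb1 and Tgfb3 had the highest levels of the 8 genes in DMSO. Genes with a mean of at least 1 FPKM and a value above 0 in both groups were compared, and the limit for a call was 2-fold on the log2(FPKM + 1) scale. Of the 4 ligands that qualified, Gdf15 was higher, Tgfb1 and Tgfb3 were lower, and Inhbb lay within the limit. Of all 10331 genes compared in the same way, 6.62% were called higher with Nutlin-3a and 6.14% lower, which makes 12.8% in either direction. A count over 4 genes is too small to be set against these shares as a rate. The median log2 ratio was -0.16 over these 4 ligands and 0.07 over all genes compared. Every log2 ratio given, and every count of genes at least 2-fold higher or lower, is on the log2(FPKM + 1) scale. A weak gene can therefore lie within the limit with a plain ratio above 2. Another 4 ligands, Tgfb2, Inhba, Gdf10 and Bmp4, were under the minimum mean. Each of the 8 ligands was listed as a single transcript.

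**Figure D1:**
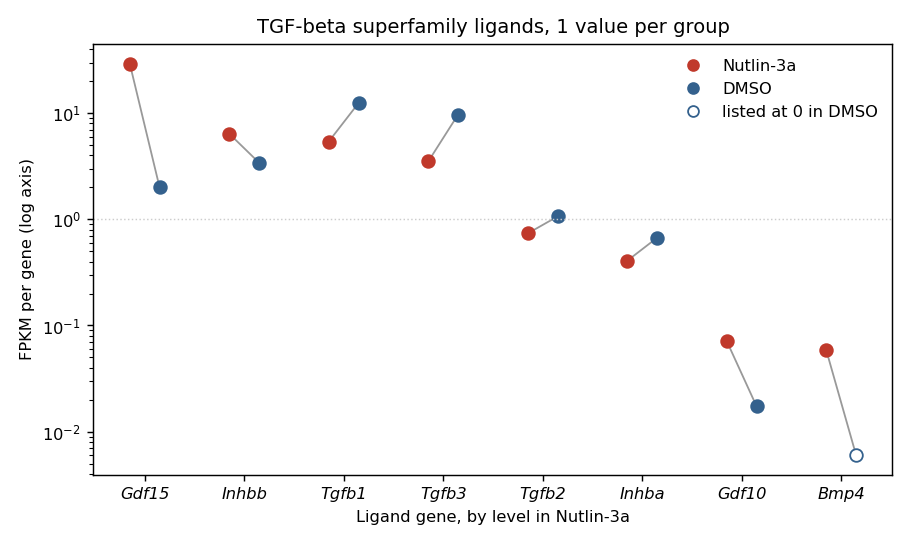
FPKM of the 8 listed ligand genes on a log axis, with 1 point per group joined by a line (red, Nutlin-3a; blue, DMSO; open, listed at 0 and drawn at the foot of the axis) and a dotted line at 1 FPKM. Gdf15 stands at 29.3 FPKM in Nutlin-3a, against 2.0 in DMSO, whereas Tgfb1 and Tgfb3 have their lower point in Nutlin-3a.

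Gdf15 encodes a stress-induced cytokine that reduces appetite when it circulates. It was listed at 29.3 FPKM in Nutlin-3a, against 2.0 FPKM in DMSO, a 14.7-fold higher value and a log2 ratio of 3.34. This ratio ranked 12 from the top among the 10331 genes compared. By level, Gdf15 ranked 2454 of 16709 symbols in Nutlin-3a and 8855 in DMSO, a middling rank in the vehicle and a place among the better expressed genes in Nutlin-3a. The 3 protein-coding genes whose pair of group values lay closest to that of Gdf15, by straight-line distance on the log2(FPKM + 1) scale over the 2 group values, were Btg2, Trp53inp1 and Aldh4a1. Btg2, an antiproliferative gene, had 22.9 FPKM in Nutlin-3a, against 2.28 in DMSO. Trp53inp1, whose product modulates p53 activity, had 38.4 FPKM in Nutlin-3a, against 2.62 in DMSO. Aldh4a1, a mitochondrial enzyme gene of proline breakdown, had 23.3 FPKM in Nutlin-3a, against 3.69 in DMSO. Their distances from Gdf15 were 0.36, 0.47 and 0.72 log2 units, and a likeness over only 2 values is loose.

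The listed Gdf15 locus runs from 70629394 to 70631635 on the minus strand of chromosome 8 (mm10) and overlaps no other annotated gene. Its upper end lies 835 bases inside the RefSeq gene, so the model behind this FPKM stops short of both RefSeq start sites named here. RefSeq gives Gdf15 a pair of start sites, and the 300-base windows from 250 bases before to 50 bases after each are shown because Gdf15 has the largest log2 ratio of the 8 listed genes (RefSeq, GRCm38.p6, minus strand, chr8:70632407-70632706 for the upstream start and chr8:70632046-70632345 for the downstream one). Which start these cells used was not measured. Capitals mark CATG, the centre of many p53 binding sequences.
Gdf15 upstream start: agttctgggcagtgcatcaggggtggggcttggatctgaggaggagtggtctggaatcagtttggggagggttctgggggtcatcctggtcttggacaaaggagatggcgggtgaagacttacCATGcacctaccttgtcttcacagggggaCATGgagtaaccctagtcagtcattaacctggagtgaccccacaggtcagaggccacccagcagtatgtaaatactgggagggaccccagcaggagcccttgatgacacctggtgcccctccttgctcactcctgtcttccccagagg
Gdf15 downstream start: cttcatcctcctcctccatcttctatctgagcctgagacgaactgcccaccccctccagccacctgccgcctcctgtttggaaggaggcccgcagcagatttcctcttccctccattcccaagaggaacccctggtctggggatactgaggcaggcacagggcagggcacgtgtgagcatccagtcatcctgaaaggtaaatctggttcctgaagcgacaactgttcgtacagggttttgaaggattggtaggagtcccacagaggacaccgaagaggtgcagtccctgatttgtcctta
CATG occurred at 2 places in the upstream window, with first bases 127 and 98 bases before the start site, and at none in the downstream window. That tetramer is its own reverse complement, and it is found in 61.1% of the 32851 promoter windows of the RefSeq table. The decamer consensus of p53 response elements, searched on both strands, was in neither Gdf15 window, while 8.36% of all windows hold it. Of the 7 ligand genes with a window in the table, Gdf10 was the only one with a match, and it was barely detected. TGATGNAA, a core letter pattern of ATF4-type elements, was in neither window and in 3.97% of all windows, also searched on both strands. CAGAC, the letters of a SMAD box, was found once in each Gdf15 window and is in 49.6% of all windows. The AP-1 type letters TGANTCA, in 7.81% of all windows, and TATAAA, in 13.6%, were in neither.

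The genes next to Gdf15 did not share its ratio. Within 100 kb of the Gdf15 model, 7 other genes were compared, of which 1 was at least 2-fold higher and 1 at least 2-fold lower. These are too few to set a share beside the 12.8% of all genes past the limit. Ell, an elongation factor gene of RNA polymerase II, was the higher one, with 17.4 FPKM in Nutlin-3a, against 5.87 in DMSO (log2 ratio 1.42), at 36.5 kb from Gdf15. Isyna1, the gene of the enzyme that makes inositol phosphate, was the lower one, with 17.6 FPKM in Nutlin-3a, against 37.0 in DMSO (log2 ratio -1.03). The nearest gene compared, Pgpep1, a peptidase gene 14.8 kb away, had 11.9 FPKM in Nutlin-3a, against 8.36 in DMSO. Jund, an AP-1 transcription factor gene 66.1 kb away, had 37.0 FPKM in Nutlin-3a, against 42.0 in DMSO.

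**Figure D2:**
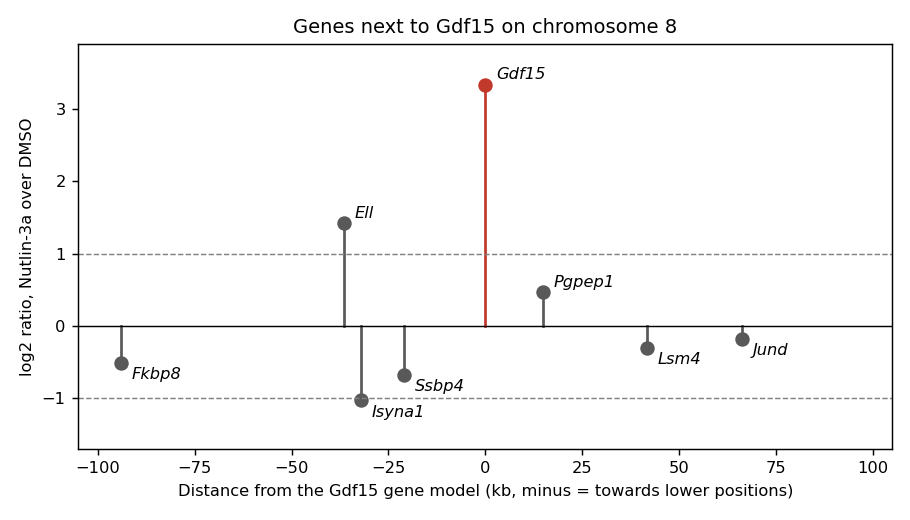
Log2 ratio of FPKM + 1, Nutlin-3a over DMSO, of Gdf15 (red, at 0) and the 7 genes compared within 100 kb of it (grey), by distance in kb from the gene model, with dashed lines at 2-fold. Gdf15 stands at 3.34, while its neighbours lie between -1.03 for Isyna1 and 1.42 for Ell.

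Tgfb1 and Tgfb3 were lower in Nutlin-3a. Tgfb1, the isoform that most cells secrete and the one best known for driving matrix production, had 5.41 FPKM in Nutlin-3a, against 12.5 in DMSO, a 2.31-fold lower value (log2 ratio -1.07). Tgfb3, an isoform known from palate fusion and scarless healing, had 3.51 FPKM in Nutlin-3a, against 9.70 in DMSO, a 2.77-fold lower value (log2 ratio -1.25). Tgfb2, which relies on the co-receptor betaglycan for binding, had 0.737 FPKM in Nutlin-3a, against 1.06 in DMSO, under the minimum mean. Together the 3 isoform genes summed to 9.65 FPKM in Nutlin-3a, against 23.2 in DMSO. The level of Tgfb1 was 1.54 times that of Tgfb3 in Nutlin-3a and 1.29 times in DMSO, so Tgfb1 stayed ahead of Tgfb3 in both groups. With 5.24% of the genes compared having a ratio as low as that of Tgfb1 or lower, and 3.38% as low as that of Tgfb3 or lower, neither stood far out in the lower tail.

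Tgfb1 lies on chromosome 7 from 25687002 to 25704996 on the plus strand, and Tgfb3 on chromosome 12 from 86056743 to 86079041 on the minus strand (both mm10, as listed). Tgfb2 lies on chromosome 1 from 186623186 to 186705992 on the minus strand. The listed Tgfb1 transcript carries class code j, which marks a model that shares a splice junction with the annotated transcript without matching it throughout. The GENCODE gene Ttll5 overlaps the 3′ end of Tgfb3 on the opposite strand, and whether fragments were assigned by strand is not given in the sources used here. Ttll5 had 1.70 FPKM in Nutlin-3a, against 1.27 in DMSO. No Tgfb3 window was matched in the RefSeq promoter table. The Tgfb1 window (GRCm38.p6, plus strand, chr7:25686752-25687051) is shown beside those of Gdf15 because the 2 genes had opposite ratios, and its capitals mark the GC box GGGCGG or its reverse complement.
Tgfb1: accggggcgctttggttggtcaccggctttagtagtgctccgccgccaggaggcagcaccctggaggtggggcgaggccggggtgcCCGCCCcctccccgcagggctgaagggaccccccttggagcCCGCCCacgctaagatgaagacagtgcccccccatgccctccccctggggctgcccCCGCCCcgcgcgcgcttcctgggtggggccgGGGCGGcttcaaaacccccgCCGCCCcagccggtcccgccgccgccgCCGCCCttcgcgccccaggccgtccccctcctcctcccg
GGGCGG was found at 6 places in the Tgfb1 window and at none in either Gdf15 window, and 35.7% of all windows hold it on either strand. GC made up 77.0% of the Tgfb1 window, against 57.0% and 56.0% of the upstream and downstream Gdf15 windows. CATG was found once in the Tgfb1 window, and the p53 decamer consensus was not found there.

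Base composition was set beside the ratios because log2 ratios moved with GC content across all genes. The Spearman rho over 9935 genes, which are not independent replicates, was -0.22. The class of lowest GC among 8 had a median log2 ratio of 0.24 and the class of highest GC a median of -0.17. The longest GENCODE transcript of Gdf15 has 61.3% GC, in the class of highest GC, and subtracting the class median left its log2 ratio at 3.51. The same step gave -1.004 for Tgfb1, just past the limit, and -1.18 for Tgfb3.

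**Figure D3:**
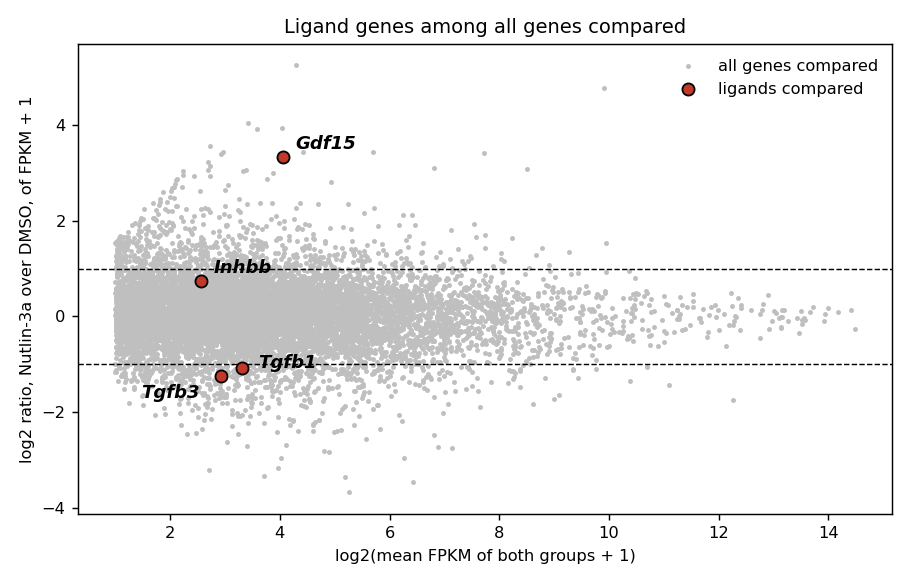
Log2 ratio of FPKM + 1, Nutlin-3a over DMSO, against log2 of the mean FPKM + 1 for the 10331 genes compared (grey) and the 4 ligands among them (red), with dashed lines at 2-fold. Gdf15, at 3.34, lies near the upper edge of genes of its level, while Tgfb1 (-1.07) and Tgfb3 (-1.25) lie just below the lower line.

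None of the activin and inhibin subunit genes passed the limit. Inhbb, which encodes the beta B subunit of activin B, had 6.41 FPKM in Nutlin-3a, against 3.41 in DMSO, a 1.88-fold higher value that stayed within the limit (log2 ratio 0.75). Inhba, the beta A subunit gene of activin A, had 0.407 FPKM in Nutlin-3a, against 0.671 in DMSO, both under 1 FPKM. The level of Inhbb was 15.7 times that of Inhba in Nutlin-3a and 5.08 times in DMSO. Inha, the alpha subunit gene that turns a beta subunit into inhibin, had 3.31 FPKM in Nutlin-3a, against 5.34 in DMSO (log2 ratio -0.55). Inhbb lies on chromosome 1 from 119415465 to 119422248 and overlaps no other annotated gene. Inhba, on chromosome 13 from 16014475 to 16027211, overlaps a pseudogene and an antisense gene on the other strand.

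Gdf10 and Bmp4 were barely detected. Gdf10, also called BMP3B, had 0.0712 FPKM in Nutlin-3a, against 0.0173 in DMSO, and Bmp4 had 0.0584 FPKM in Nutlin-3a and was listed at 0 in DMSO. No fold is given for Bmp4, because a listed 0 may be an estimate that failed. Low values leaned towards Nutlin-3a across the table. At 0 stood 1215 transcripts in Nutlin-3a and 3871 in DMSO, and 72.1% of the 6329 symbols with a mean under 1 FPKM had the higher value in Nutlin-3a. The listed Bmp4 locus, on chromosome 14 from 46379524 to 46390599, extends 4001 bases past the 3′ end of the RefSeq gene into Gm15217, a gene on the opposite strand. Gdf10 lies on the same chromosome from 33923587 to 33935282.

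The order of the ligands by level differed between groups. In Nutlin-3a it ran Gdf15, Inhbb, Tgfb1, Tgfb3, Tgfb2, Inhba, Gdf10 and Bmp4, and in DMSO it ran Tgfb1, Tgfb3, Inhbb, Gdf15, Tgfb2, Inhba, Gdf10 and Bmp4. Without values per library it cannot be said which neighbours in these orders differ beyond their spread. The 8 ligand genes summed to 45.9 FPKM in Nutlin-3a, against 29.3 in DMSO. Gdf15 made up 63.9% of this sum in Nutlin-3a and 6.81% in DMSO, while Tgfb1 made up 11.8% in Nutlin-3a and 42.5% in DMSO. Without Gdf15 the sum was 16.6 FPKM in Nutlin-3a, against 27.3 in DMSO. The level of Gdf15 was 5.43 times that of Tgfb1 in Nutlin-3a and 0.16 times that of Tgfb1 in DMSO.

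**Figure D4:**
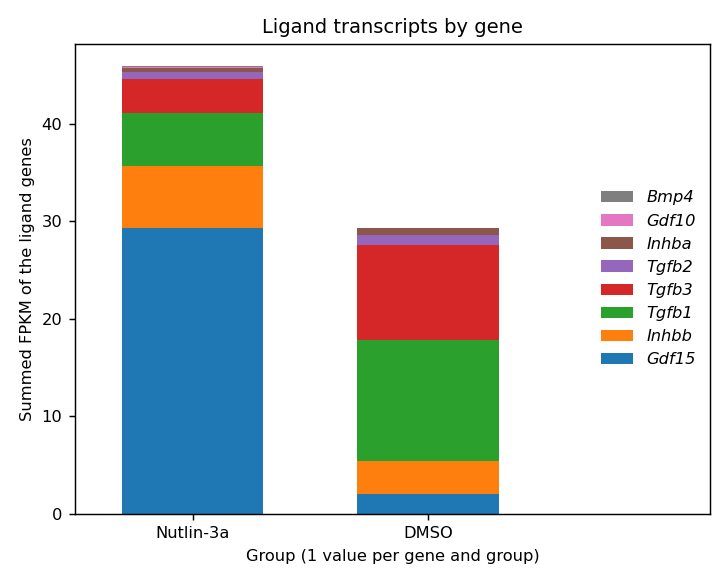
Stacked bars of FPKM summed over the 8 listed ligand genes, with 1 bar per group and 1 colour per gene. The Nutlin-3a bar reaches 45.9 FPKM, of which Gdf15 holds 29.3, and the DMSO bar reaches 29.3 FPKM, mostly Tgfb1 (12.5) and Tgfb3 (9.70).

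Few other ligands of the superfamily were expressed. Of 13 listed, 4 were compared, with 1 at least 2-fold higher and 1 at least 2-fold lower, and 7 were listed at 0 in DMSO. With 12.8% of all genes past the limit, a count over 4 genes gives no rate. Gdf9, known as an oocyte factor, had 3.25 FPKM in Nutlin-3a, against 0.134 in DMSO (log2 ratio 1.91). Its mean reached the minimum only through the Nutlin-3a value, so Gdf9 could not have been called lower. Gdf1, a nodal partner in left-right patterning, had 8.31 FPKM in Nutlin-3a, against 22.3 in DMSO (log2 ratio -1.32). The listed Gdf1 locus spans 2.37 times the length of the RefSeq gene. All its transcripts carry the same listed positions, so whether its value holds fragments of other genes is not known. Amh, the anti-Müllerian hormone gene, had 2.08 FPKM in Nutlin-3a, against 1.15 in DMSO. Among GDNF family ligands and receptors, 1 of 9 listed genes was compared, Gdnf, with 0.863 FPKM in Nutlin-3a, against 1.60 in DMSO. Ret, the kinase that GFRAL uses, had 0.0143 FPKM in Nutlin-3a and was listed at 0 in DMSO, and Gfral was not analysed here.

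Tgfbr1, Tgfbr2, Bmpr1a and Bmpr2 had near-equal values, while Acvr2a, Amhr2 and the co-receptor gene Eng were higher in Nutlin-3a. None of 4 type I receptor genes compared passed the limit (median log2 ratio 0.07), with Tgfbr1 at 4.54 FPKM in Nutlin-3a, against 3.97 in DMSO. Acvr1 had 5.75 FPKM in Nutlin-3a, against 5.31 in DMSO, and Bmpr1a had 5.39 FPKM in Nutlin-3a, against 6.14 in DMSO. The shares over all genes were 6.62% higher and 6.14% lower, and the receptor lists are too short to give a rate. Of 5 type II receptor genes, 2 were higher by the limit and none was lower (median 0.81). These were Amhr2, the receptor gene of anti-Müllerian hormone, with 3.55 FPKM in Nutlin-3a, against 0.272 in DMSO, and Acvr2a, an activin receptor gene, with 3.92 FPKM in Nutlin-3a, against 1.18 in DMSO. Amhr2 reached the minimum mean only through its Nutlin-3a value, so it could not have been called lower. Acvr2a lay within the limit after correction for GC content (0.94). Acvr2b, the other activin type II receptor gene, lay within it on the log2(FPKM + 1) scale. It had 3.06 FPKM in Nutlin-3a, against 1.31 in DMSO, a plain ratio of 2.33 (log2 ratio 0.81). Tgfbr2, which binds TGF-beta itself, had 10.0 FPKM in Nutlin-3a, against 11.3 in DMSO, and Bmpr2 had 2.48 FPKM in Nutlin-3a, against 2.49 in DMSO. Of 4 co-receptor genes compared, Eng, the endoglin gene, was at least 2-fold higher with 6.52 FPKM in Nutlin-3a, against 1.55 in DMSO (median of the 4, 0.14). Tgfbr3, the betaglycan gene, had 13.3 FPKM in Nutlin-3a, against 16.8 in DMSO. The BMP co-receptor genes Rgmb (9.77 FPKM in Nutlin-3a, against 6.17 in DMSO) and Rgma (3.84 FPKM in Nutlin-3a, against 6.99 in DMSO) lay within the limit on opposite sides.

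The inhibitory SMAD genes were higher in Nutlin-3a, whereas SMADs that carry the signal lay within 2-fold. Of 7 SMAD genes compared, 2 were at least 2-fold higher and none was lower (median 0.52). The share higher over all genes was 6.62%, and 7 genes are too few to give a rate. Smad7, whose protein blocks type I receptors and recruits SMURF ligases, had 14.0 FPKM in Nutlin-3a, against 3.66 in DMSO, a 3.83-fold higher value. Smad6, which mainly restrains BMP signals, had 13.4 FPKM in Nutlin-3a, against 5.33 in DMSO, a 2.52-fold higher value. Among those that carry the signal, Smad3 was near equal, while Smad4 and Smad1 had higher values within the limit. Smad3 had 8.06 FPKM in Nutlin-3a, against 8.20 in DMSO. Smad4 had 14.5 FPKM in Nutlin-3a, against 9.84 in DMSO. Smad1 had 10.9 FPKM in Nutlin-3a, against 5.50 in DMSO, a 1.97-fold higher value close to the limit (log2 ratio 0.87). Smad2 (3.42 FPKM in Nutlin-3a, against 2.18 in DMSO) and Smad5 (4.35 FPKM in Nutlin-3a, against 6.58 in DMSO) lay on opposite sides. Among 10 regulators of SMADs, 1 was higher by the limit and 1 lower by it (median 0.53). With 12.8% of all genes past the limit in either direction, so small a count says nothing particular about these regulators. Tob1, an antiproliferative gene whose protein binds SMADs, had 36.3 FPKM in Nutlin-3a, against 10.3 in DMSO. Tgif2, a repressor gene, was the lower one and had 4.29 FPKM in Nutlin-3a, against 12.1 in DMSO. Ski, a SMAD co-repressor gene (12.1 FPKM in Nutlin-3a, against 5.91 in DMSO), lay just within the limit, with a plain ratio of 2.05. Smurf1, a ubiquitin ligase gene (15.6 FPKM in Nutlin-3a, against 7.95 in DMSO), also lay just within it. Tgif1, another repressor gene, also lay within it, with 20.0 FPKM in Nutlin-3a, against 30.0 in DMSO (log2 ratio -0.56).

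Genes that act on ligands outside the cell were lower or within 2-fold. Of 7 BMP and activin antagonist genes compared, none was at least 2-fold higher and 2 were at least 2-fold lower (median -0.34). Fstl1, a secreted follistatin-like glycoprotein gene, had 47.3 FPKM in Nutlin-3a, against 128 in DMSO. Nbl1, a BMP antagonist gene of the DAN family, had 3.83 FPKM in Nutlin-3a, against 8.95 in DMSO, with a log2 ratio of -0.87 after correction for GC content. Fst and Grem1 lay within the limit. Fst, which encodes the activin trap follistatin, had 8.44 FPKM in Nutlin-3a, against 12.3 in DMSO. Grem1, another BMP antagonist gene, had 6.55 FPKM in Nutlin-3a, against 8.58 in DMSO. Twsg1, the twisted gastrulation gene, had 19.2 FPKM in Nutlin-3a, against 18.7 in DMSO. Of 13 genes for the latency and activation of TGF-beta, none was higher and 2 were lower by the limit (median -0.23). The share lower over all genes was 6.14%, and the counts on these 2 lists are too small to be set against it as a rate. Mmp14, a membrane-bound protease gene, had 82.8 FPKM in Nutlin-3a, against 189 in DMSO. Itgb3, an integrin subunit gene, had 2.38 FPKM in Nutlin-3a, against 5.81 in DMSO. Ltbp3, a latent TGF-beta binding protein gene, had 47.6 FPKM in Nutlin-3a, against 46.3 in DMSO. Mmp2, a gelatinase gene, had 131 FPKM in Nutlin-3a, against 151 in DMSO, and Itgb1, the beta 1 integrin gene, had 55.6 FPKM in Nutlin-3a, against 38.8 in DMSO.

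None of 3 processing protease genes compared passed the limit (median 0.01), though the tolloid protease gene Bmp1 summed over transcripts with opposite ratios. Bmp1, which despite its name is no ligand, summed to 40.9 FPKM in Nutlin-3a, against 40.7 in DMSO. One of its transcripts had 18.1 FPKM in Nutlin-3a, against 1.22 in DMSO, and the other had 22.8 FPKM in Nutlin-3a, against 39.4 in DMSO. Furin, the convertase gene that cuts TGF-beta precursors, had 8.67 FPKM in Nutlin-3a, against 13.7 in DMSO. Pcsk7, another convertase gene, had 7.86 FPKM in Nutlin-3a, against 5.92 in DMSO. Its listed locus spans 2.82 times the length of the RefSeq gene and is the same as that listed for Tagln.

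Known response genes of the 2 pathway branches had opposite medians. Of 9 BMP response genes compared, 4 were higher in Nutlin-3a by the limit and none was lower, with a median log2 ratio of 0.95 and 8 of 9 ratios above 0. Id2, which encodes an inhibitor of basic helix-loop-helix factors, had 31.8 FPKM in Nutlin-3a, against 8.29 in DMSO (log2 ratio 1.82). Atoh8, a transcription factor gene, had 26.1 FPKM in Nutlin-3a, against 10.1 in DMSO (1.28), and Smad6 and Smad7 are the other members past the limit. Id1 had 578 FPKM in Nutlin-3a, against 373 in DMSO, and Id3 had 397 FPKM in Nutlin-3a, against 240 in DMSO, both within the limit. Runx2, a bone transcription factor gene, also lay within it, with 8.97 FPKM in Nutlin-3a, against 4.23 in DMSO, a plain ratio of 2.12. Of 16 TGF-beta response genes, 2 were at least 2-fold higher and 3 at least 2-fold lower, with a median of -0.38 and 12 of 16 ratios below 0. Those lower were Tgfbi, named for its induction by TGF-beta (20.2 FPKM in Nutlin-3a, against 68.6 in DMSO), Col1a2 (263 FPKM in Nutlin-3a, against 817 in DMSO) and Col1a1 (63.9 FPKM in Nutlin-3a, against 193 in DMSO), both of type I collagen. Those higher were Smad7, which stands on both lists, and Junb, an AP-1 gene (110 FPKM in Nutlin-3a, against 50.5 in DMSO). Acta2, the smooth muscle actin gene, had 188 FPKM in Nutlin-3a, against 266 in DMSO. Fn1, the fibronectin gene, had 171 FPKM in Nutlin-3a, against 205 in DMSO, and Cdkn2b, the p15 gene, had 62.6 FPKM in Nutlin-3a, against 63.3 in DMSO. Over all genes compared, 6.62% were higher and 6.14% lower by the limit, and the quartiles of the log2 ratio were -0.33 and 0.44. The TGF-beta response median thus lay just below the lower quartile. A median over a list is a description, and the difference between both lists was not tested.

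**Figure D5:**
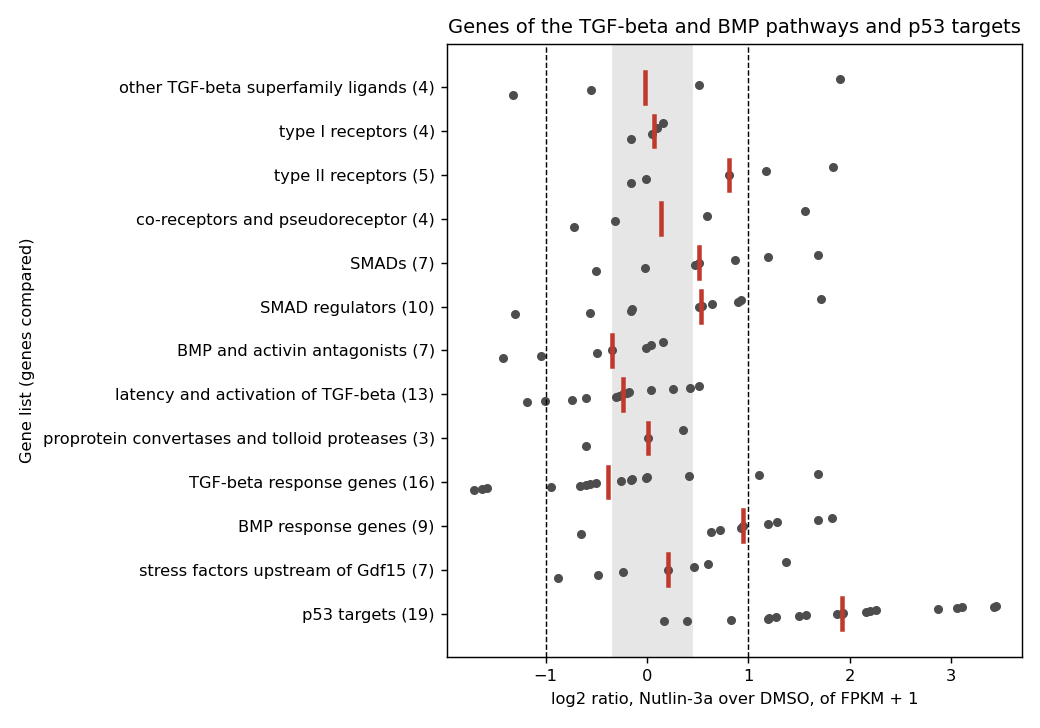
Log2 ratio of FPKM + 1, Nutlin-3a over DMSO, of each gene compared (points) in 13 gene lists, with the list median (red bar), the range between the quartiles of all genes compared (grey band, -0.33 to 0.44) and dashed lines at 2-fold. The p53 targets have a median of 1.92 and the BMP response genes 0.95, while the TGF-beta response genes have a median of -0.38.

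Most fibroblast markers also had lower values in Nutlin-3a. Over all genes compared, 6.14% were lower by the limit and 6.62% higher. Of 8 preadipocyte and fibroblast markers compared, 5 were at least 2-fold lower in Nutlin-3a and none was higher. Those lower were Pdgfra, Vim, Col1a1, Col1a2 and Col3a1, so Col1a1 and Col1a2 count here and among the TGF-beta response genes. The 9 listed summed to 2256 FPKM in Nutlin-3a, against 5007 in DMSO, of which Vim, the vimentin gene, gave 1181 FPKM in Nutlin-3a, against 3169 in DMSO. Pdgfra had 9.14 FPKM in Nutlin-3a, against 30.0 in DMSO, while Dlk1, the preadipocyte marker, had 623 FPKM in Nutlin-3a, against 513 in DMSO. Thy1 and Pdgfrb lay within the limit on the lower side, with log2 ratios of -0.87 and -0.74. In bulk RNA, fewer cells of a type and less RNA per cell cannot be told apart, and the part of this difference in the ligand values was not tested. Of 6 mature adipocyte markers, 2 were compared and both were lower, Fabp4 (log2 ratio -2.16) and Lpl (-1.14), and the 6 summed to 33.8 FPKM in Nutlin-3a, against 96.6 in DMSO. Adipoq, Plin1 and Lep, which define mature adipocytes, were under 1 FPKM in both groups, each with the higher value in Nutlin-3a. Adipoq, the adiponectin gene, had 0.84 FPKM in Nutlin-3a, against 0.0409 in DMSO. Markers of other cell types were mostly low, and several had a higher value in Nutlin-3a. The macrophage gene Ptprc, the epithelial gene Epcam, the endothelial gene Kdr and the muscle genes Myod1 and Myog were under 0.1 FPKM in Nutlin-3a and at 0 in DMSO. Pecam1, another endothelial marker, had 1.57 FPKM in Nutlin-3a, against 0.026 in DMSO. Col2a1, of cartilage, had 1.72 FPKM, Bglap, of bone, 1.01 FPKM and Ckm, of muscle, 0.906 FPKM in Nutlin-3a, and all were listed at 0 in DMSO. Lyz2, of macrophages, had 0.671 FPKM in Nutlin-3a, against 0.0507 in DMSO. The part of these markers in the ligand values was not tested. The 5 macrophage markers listed summed to 8.25 FPKM in Nutlin-3a, against 3.51 in DMSO. The 4 epithelial ones summed to 1.05 FPKM in Nutlin-3a, against 0.315 in DMSO, and the 3 endothelial ones to 1.72 FPKM in Nutlin-3a, against 0.174 in DMSO. The 4 muscle markers summed to 5.17 FPKM in Nutlin-3a, against 4.90 in DMSO, and the 5 of bone and cartilage to 16.7 FPKM in Nutlin-3a, against 15.1 in DMSO. Most of the last sum was Sox9, most of the muscle sum was Des, and most of the macrophage sum was Cd68, a gene not confined to macrophages.

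Gdf15 was set beside 2 further lists, since p53 and stress factors are known to drive it. Of 19 p53 targets compared, 16 were higher in Nutlin-3a by the limit and none was lower, with a median log2 ratio of 1.92. The share higher over all genes compared was 6.62%. Of the 16, Sesn2 (5.40 FPKM in Nutlin-3a, against 0.392 in DMSO) reached the minimum mean only through its Nutlin-3a value. Trp53inp1 (3.44), Cdkn1a (3.42), the p21 gene, Ccng1 (3.11), a cyclin G gene, and Eda2r (3.05), a receptor gene, had ratios close to that of Gdf15, while Bax (0.83), Rrm2b (0.40) and Xpc (0.16) lay within the limit. The entry for Mdm2, also on that list, was 0 in Nutlin-3a, against 773 FPKM in DMSO, which kept it out of the comparison. Both of its transcripts, at 759 and 13.3 FPKM in DMSO, were listed at 0 in Nutlin-3a. Such a 0 may be an estimate that failed, so no direction is given for Mdm2. The count of none lower leaves this gene out. Of 7 factors upstream of Gdf15, 1 was higher by the limit and none lower (median 0.21). Atf3 was the higher one, with 2.53 FPKM in Nutlin-3a, against 0.363 in DMSO. It reached the minimum mean only through its Nutlin-3a value, so Atf3 could not have been called lower. Atf4, the main factor of the integrated stress response, had 178 FPKM in Nutlin-3a, against 328 in DMSO. Ddit3, which encodes CHOP, had 285 FPKM in Nutlin-3a, against 336 in DMSO. Atf4 and Ddit3 lay within the limit, both on the lower side. Egr1, an immediate early gene, had 77.9 FPKM in Nutlin-3a, against 56.1 in DMSO. Trp53, the p53 gene itself, had 63.1 FPKM in Nutlin-3a, against 54.5 in DMSO. The listed Ddit3 locus spans 3.82 times the length of the RefSeq gene. Both Ddit3 transcripts carry the same listed positions, so whether their values hold fragments of other genes is not known.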

How the data were processed

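RNA sequencing was done on 4 libraries of 3T3-L1 cells, 2 of Nutlin-3a and 2 of DMSO, grouped by their titles. Per the submitters' processing notes, TopHat2 2.0.11 and the mm10 build were used. What quantified transcripts, with which annotation and strand setting, and how replicates were combined is not stated by the labels or header. The table the authors deposited held 1 FPKM value (fragments per kilobase of transcript, scaled to mapped fragments) per transcript and group. Columns with the prefix NUT were taken for Nutlin-3a and those with DSM for the remaining group, DMSO. A second pair of deposited columns held log2 of the same FPKM, within 0.00714, and was not used. Listed starts count from 0, and 1 was added for printing. Where a gene named here had several transcripts, all carried the same listed start and end. These positions were therefore taken for the locus, and the extent of each transcript is not known. The listed loci of Id4 (44.7 times), Tagln (11.3 times), Rgma (2.47 times), Runx2 (1.96 times) and Ltbp3 (1.73 times), among others, were also longer than the RefSeq gene. Depth per library is unknown, so no interval or floor is given.

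FPKM was summed per gene symbol (16709 symbols). Log2 ratios, Nutlin-3a over DMSO, used a pseudocount of 1, which understates the ratio of weak genes. Plain folds are ratios of FPKM. Genes with a mean of at least 1 FPKM and a value above 0 in both groups were compared. A gene counts as higher or lower from a 2-fold difference on the log2(FPKM + 1) scale. With 1 value per group, the planned limma fit and every test across libraries could not be run, and no p-value is given. The call rule was tested on simulated data with an assumed spread, and with changes well past the limit in better expressed genes only. That test therefore gives no error rate for weak genes or for ratios near the limit.

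The ligands, the 14 pathway lists and the 7 cell type lists were chosen with earlier results of these data known, so no count over them is independent support. Each list names up to 4 genes with the largest ratio past the limit and up to 3 of the highest mean within it. Other genes are examples, chosen after their values were seen. GC content and gene overlaps came from GENCODE M21, and promoters from RefSeq. Alternatives covered pseudocounts, scaling, GC content, transcript choice, the minimum and the limit. Python 3.11.15, pandas 2.3.3 and numpy 2.4.6 were used.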

Additional observations from a re-analysis of the deposited data

How the results depend on the processing

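No result was set against replicate error, because the table gives 1 value per group, and leaving out each replicate was not run for the same reason. No paired analysis was possible because the columns carry no replicate. Depth per library is unknown, so values near 0 are uncertain. Gdf15 (log2 ratio 3.27 to 3.81), Tgfb1 (-1.19 to -1.004) and Tgfb3 (-1.44 to -1.18) kept their direction and side of the limit under the 7 alternatives of pseudocount, scaling, transcript and GC content, and Inhbb (0.65 to 0.92) stayed within it. The median of all genes moved by at most 0.07 under these. Gdf10 turned to -0.0193 under quantile normalization. With a limit of 1.5-fold, 2 ligands were higher, and with 3-fold none was lower. Over all genes, 1839 were higher and 1566 lower at 1.5-fold, and 201 higher and 154 lower at 3-fold. With a minimum mean of 5 FPKM, 391 were higher and 466 lower. Median centring gave 596 higher and 729 lower, quantile normalization 606 higher and 711 lower, and GC correction 611 higher and 616 lower, so the balance of 684 higher and 634 lower turned under these settings. BMP response genes higher numbered 8 at 1.5-fold and 2 at 3-fold, and 1 was lower at 1.5-fold and with a pseudocount of 0.1. Their median was 1.19 with the minimum of 5 FPKM, 1.16 with the pseudocount of 0.1 and 1.05 with 0.5. TGF-beta response genes numbered 6 lower at 1.5-fold and 1 higher at 3-fold.

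Some list medians changed sign. That of other ligands became 0.15 with GC correction and 0.0642 and 0.0144 with pseudocounts of 0.1 and 0.5. That of the processing proteases became -0.064 with median centring, -0.64 with the transcript of highest mean and -0.00634 with upper quartile scaling. That of type I receptors became -0.0327 with GC correction, -0.0319 with the minimum of 5 FPKM and -0.0487 with quantile normalization. With that minimum, co-receptors had -0.32, type II receptors -0.16 and stress factors -0.0148. It left out Eng (mean 4.03 FPKM) of the co-receptors and Atf3 (mean 1.45 FPKM) of the stress factors. Of the type II receptors it kept Tgfbr2 alone, so -0.16 is the ratio of that gene. Without a minimum, the GDNF family had 0.14. The cause of the other changes of sign was not tested.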

Other observations

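The genes around the other ligands are given as values, since too few were compared to set a share beside the 12.8% of all genes. Within 100 kb of Tgfb1, 8 genes were compared and none passed the 2-fold limit on the log2(FPKM + 1) scale. Of these, Tmem91 had 2.26 FPKM in Nutlin-3a, against 1.09 in DMSO, a plain ratio of 2.07 (log2 ratio 0.64). The closest of them, B9d2, a cilium gene whose model ends 0.444 kb before Tgfb1, had 14.3 FPKM in Nutlin-3a, against 23.3 in DMSO (log2 ratio -0.67). Axl, a receptor kinase gene 51.5 kb away, had 39.5 FPKM in Nutlin-3a, against 47.8 in DMSO. Near Tgfb3, Ift43, a transport gene of cilia, had 39.4 FPKM in Nutlin-3a, against 50.3 in DMSO. Next to the nearly silent Gdf10 lay Zfp488, a zinc finger gene 31.8 kb away, with 6.50 FPKM in Nutlin-3a, against 1.09 in DMSO (log2 ratio 1.84), and Gdf2, the gene of BMP9, with 0.0499 FPKM in Nutlin-3a and 0 listed in DMSO.

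Some pathway genes held transcripts with unequal ratios. Fst, the follistatin gene, had a transcript with 0.00142 FPKM in Nutlin-3a, against 1.89 in DMSO, while its main transcript had 8.08 FPKM in Nutlin-3a, against 9.71 in DMSO. Tgif2 had a transcript with 2.97 FPKM in Nutlin-3a, against 11.4 in DMSO, and a second one with 1.32 FPKM in Nutlin-3a, against 0.697 in DMSO. The 3 listed Eng transcripts each had the higher value in Nutlin-3a, with 3.58 FPKM in Nutlin-3a, against 0.834 in DMSO for the most abundant.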
